A study of Mus musculus with 4 samples.

Results

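Hmga2, Lin28a, Igf2bp1 and Igf2bp3 belong to a group of genes that mark fetal stem cells. The group as listed holds 6 genes, Hmga1, Hmga2, Lin28a, Igf2bp1, Igf2bp2 and Igf2bp3, selected on an earlier reading of these signals, in which Hmga2 stood apart in the wild-type array, together with its partners around let-7. All probe sets that the platform annotation assigned to 1 listed gene only were taken, which gave 11 of the 22690 probe sets on the array and 4 of the 12393 genes measured. Of these, 3 measured Hmga2, 2 Lin28a, 2 Igf2bp1 and 4 Igf2bp3, and Hmga1 and Igf2bp2 were not analysed here. Since the difference between genotypes was in view when the genes were chosen, all their values are given as a description. The members kept were also part of the test over all probe sets, and nothing is read from their result there.

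The samples were neural stem cells from the ganglionic eminences, the ventral zones of the forebrain, of mouse embryos at embryonic day 14.5, grown without serum and with EGF on a C57/Bl6 background. There was 1 array of wild-type cells and there were 3 arrays of cells labelled Olig1 KO; Olig1 is a basic helix-loop-helix transcription factor. The label names for KO replicates 2 and 3 carry the numbers 37 and 38, and KO replicate 1 has none. KO signals are listed in the order of replicates 1, 2 and 3 throughout. Neither the allele nor the number of embryos or cultures behind the KO samples is stated in the labels. How much of the spread between them is technical is therefore not known. KO replicate 1 differed from the other KO arrays in Xist and Eif2s3y, given below.

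The proteins of this group act at successive steps of one circuit. Hmga2 is a small chromatin protein that binds AT-rich DNA through AT-hooks, and it sustains self-renewal of fetal neural stem cells, in part by holding down the cell cycle inhibitor locus Cdkn2a. Lin28a is an RNA-binding protein that blocks the maturation of let-7 microRNAs, and let-7 in turn represses Hmga2, Lin28a and the Igf2bp mRNAs. The Igf2bp proteins bind mRNAs and govern their stability, transport and translation.

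The let-7 microRNAs are the link between the members, so their mature sequences are shown, from RefSeq (GRCm38.p6), 5′ to 3′, with the seed, bases 2 to 8, in capitals. Of 11 mature let-7 and miR-98 sequences in that table, 10 shared the seed GAGGUAG, and let-7j alone had GAGGUAU. Shown are let-7b (chr15:85707325-85707346, + strand), let-7d, whose first base differs from the others shown (chr13:48536078-48536099, - strand), miR-98, the family member with another name (chrX:151913229-151913250, + strand), and let-7j (chr3:140028281-140028304, + strand). The microRNAs themselves were not analysed here.
mmu-let-7b-5p: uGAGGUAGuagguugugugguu
mmu-let-7d-5p: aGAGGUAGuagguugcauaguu
mmu-miR-98-5p: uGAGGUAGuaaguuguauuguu
mmu-let-7j: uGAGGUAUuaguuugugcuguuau

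The promoters of Hmga2 and Igf2bp3 are shown because these genes were the members detected most often and their signals behaved differently. Each sequence is the 250 bases before the RefSeq start site, read 5′ to 3′ on the gene's strand. Capitals mark the E-box CANNTG, the motif class bound by basic helix-loop-helix factors; its pattern is the same on both strands. The Hmga2 window (chr10:120476470-120476719, - strand) held no E-box, and 70.8% of its bases were C or T, against a median of 50% over 32851 promoters. The Igf2bp3 window (chr6:49214955-49215204, - strand) held 1 E-box, CACGTG, starting 23 bases before the start site. Its share of C or T was also high, at 68%. Over all promoters, 66.2% held CANNTG and 6.02% held CACGTG, a form counted within the first.
Hmga2 promoter: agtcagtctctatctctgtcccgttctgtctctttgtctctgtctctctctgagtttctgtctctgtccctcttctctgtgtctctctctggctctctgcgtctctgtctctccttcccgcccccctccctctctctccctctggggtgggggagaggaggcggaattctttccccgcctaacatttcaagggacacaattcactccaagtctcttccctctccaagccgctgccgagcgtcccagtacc
Igf2bp3 promoter: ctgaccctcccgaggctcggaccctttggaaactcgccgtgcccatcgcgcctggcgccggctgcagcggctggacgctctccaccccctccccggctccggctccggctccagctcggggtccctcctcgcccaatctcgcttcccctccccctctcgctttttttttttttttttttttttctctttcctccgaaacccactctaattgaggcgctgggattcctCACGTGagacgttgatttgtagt

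The values are MAS5 signals, 1 per probe set and array, in arbitrary units on a linear scale, and every array had been scaled to a trimmed mean of about 500.2. A signal is called above background where it exceeds the highest of 27 bacterial control probe sets with no target, which was 30.5 in wild type against 21.3, 39.99 and 87.8 in the KO arrays. The higher level in KO replicate 3 makes weak transcripts hardest to see there. The targeted gene did not check the labels, since the Olig1 probe set gave 7618 in wild type against 3840, 4438 and 8548 in the KO arrays, and which part of the gene it covers is not given. The arrays also formed pairs that cut across genotype: Xist, the RNA of the inactive X chromosome, gave 9480 and 8472 in the wild-type array and KO replicate 1 but 160.9 and 46.5 in KO replicates 2 and 3. Eif2s3y, a gene of the Y chromosome, gave 0.61 and 1.53 in the first pair but 654 and 1160 in KO replicates 2 and 3. The pairs thus differed in the signals of both sex chromosomes. Every direction given here rests on the labels, and only wild type and KO replicate 1 can be compared within a pair.

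All 11 marker genes of neural stem cells with a probe set, Sox2, Nes, Vim, Fabp7 and Pax6 among them, were above background in the 4 arrays. Their summed signal was 39847 in wild type against 36820, 53083 and 57204 in the KO arrays, and Vim and Notch1 were higher in all 3. Markers of other cells differed between the arrays as well. The summed signal of 7 neuron markers was 2127 in wild type against 1683, 1093 and 1051 in the KO arrays. That of 5 astrocyte markers was 4783 against 3731, 2396 and 3430. Both sums were thus lower in every KO array. In the 4 arrays, 3 of the neuron and 4 of the astrocyte markers were above background. All 7 neuron markers were above it in wild type, against 5, 6 and 3 in the KO arrays. Of the neuron markers, Tubb3 and Syt1 went the other way and were higher in all 3 KO arrays, Syt1 at background in KO replicate 3. The sum of 6 mesenchyme markers was 202 against 195, 289 and 446, with Col1a2 above background in the 4 arrays and Pdgfrb in none. Of the 6, 2 were above background in wild type, against 4, 4 and 2 in the KO arrays. This sum therefore rests in part on signals at background, whose level was highest in KO replicate 3. The sum of 6 markers of microglia and other leukocytes was 283 against 268, 444 and 345, with 2 of them above background in the 4 arrays and Ptprc in none. In such bulk RNA, fewer cells of a type and less RNA per cell cannot be told apart, and the part of these cells in the signals of Hmga2 and its partners was not tested.

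Hmga2 gave a higher signal in each of the 3 KO arrays than in wild type with all 3 of its probe sets. Only 1 of these was above background in all 4 arrays. The brightest, 1450780_s_at, read 58.8 in wild type against 287, 573 and 182 in the KO arrays, above background everywhere. The groups did not overlap, and the lowest KO signal was 3.10 times that of the wild-type array, the highest 9.75 times. The KO mean exceeded wild type by 2.16 log2 units (SE 0.59, n = 3 KO arrays and 1 wild-type array), on the scale log2(signal + 14.4), which understates differences of weak signals.

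The other probe sets of Hmga2 read the same order of arrays. Probe set 1450781_at gave 68.9 in wild type against 125.5, 346 and 86.1 in the KO arrays. All 3 KO signals lay above the wild-type one, but that of replicate 3 was at background. The log2 difference as measured was 1.04 (SE 0.68, n = 3 KO arrays and 1 wild-type array), with that array included, and without KO replicate 2 it was 0.51. Probe set 1422851_at gave 4.29 in wild type, at background, against 80.4, 189.8 and 67.3 in the KO arrays, the last again at background. Set against the wild-type background of 30.5, KO replicate 1 was at least 2.64-fold higher and KO replicate 2 at least 6.22-fold higher, and replicate 3 gives no bound. The annotation ties all 3 probe sets to the same sequence entry, so they are repeated readings of 1 gene and not replicates. With quantile normalization or median centring, all 3 probe sets still read higher in all 3 KO arrays. For KO replicate 3 this rests on 1450780_s_at, the only 1 of them above background there.

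Hmga2 also varied widely among the KO arrays. KO replicate 2 was the highest and replicate 3 the lowest with all 3 probe sets, and with 1450780_s_at, above background in each, the highest exceeded the lowest 3.15 times. The SD of the log2 values of 1450780_s_at over the KO arrays was 0.80, above that of 95.2% of the 13575 probe sets kept after the filter on weak signals. Within the pair that shared the high Xist signal, KO replicate 1 read 4.88 times the wild-type array with 1450780_s_at and 1.82 times with 1450781_at. These ratios compare 2 single arrays and have no replicate error.

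**Figure D1:**
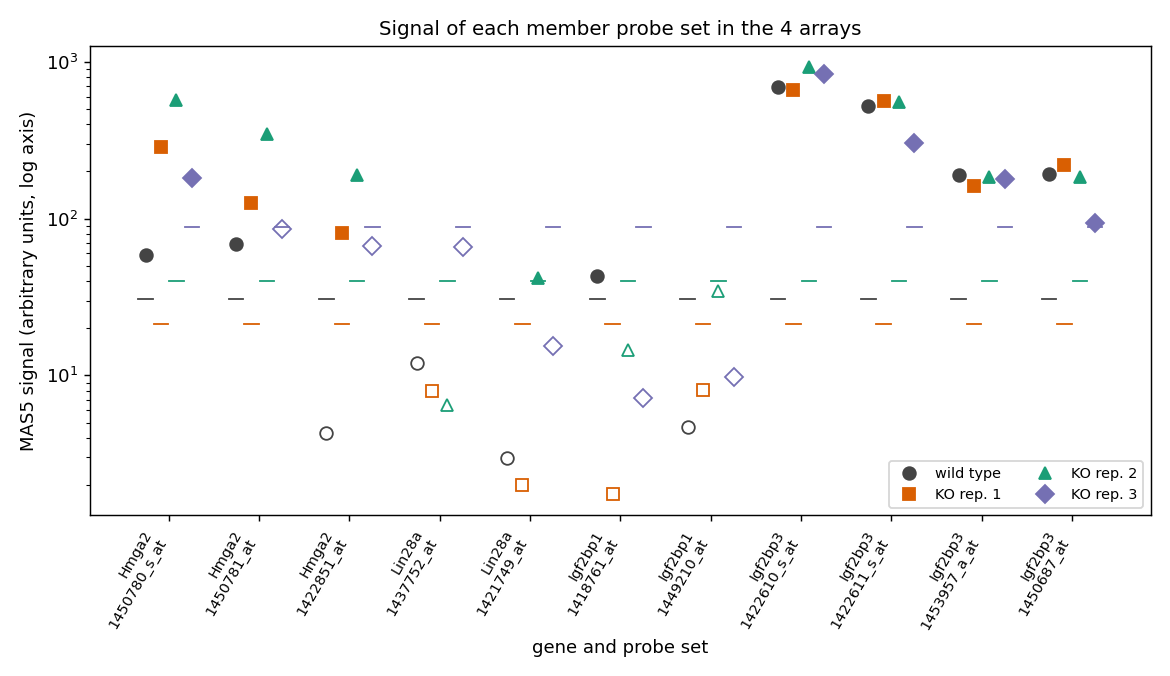
MAS5 signal (arbitrary units, log axis) of each of the 11 probe sets in the wild-type array and the 3 KO arrays; filled symbols are above background, open symbols at background, and short bars mark each array's background. Hmga2 lies lowest in the wild-type array with all 3 probe sets, Igf2bp3 is above background in the 4 arrays with all 4, and Lin28a and Igf2bp1 are mostly open symbols.

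Lin28a, the inhibitor of let-7 maturation, was at or near background. Probe set 1437752_at gave 11.9 in wild type against 7.95, 6.52 and 65.7 in the KO arrays, at background in each. Probe set 1421749_at gave 2.98 against 2.01, 41.6 and 15.5, and of these the signal in KO replicate 2 passed its background of 39.99 by a small margin. Of the 8 Lin28a signals, 1 was therefore above background, and no difference between genotypes has a size. Among 5 markers of pluripotent cells, in which Lin28a is abundant, Pou5f1, Zfp42 and Tdgf1 were above background in no array. Of the list, 1 marker was above background in wild type, against 2, 0 and 1 in the KO arrays.

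Igf2bp1, an RNA-binding protein of neural progenitors, was likewise hardly detected. Probe set 1418761_at gave 42.8 in wild type, above its background, but 1.76, 14.5 and 7.21 in the KO arrays, all at background. The wild-type signal exceeded the background of KO replicates 1 and 2 but not the 87.8 of replicate 3, so no fold is given. Probe set 1449210_at was at background in every array, at 4.66, 8.09, 34.7 and 9.81.

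Igf2bp3 was the member measured best, with all 16 signals of its 4 probe sets above background, and its signals in the wild-type array lay among those of the KO arrays for 3 probe sets. Probe set 1422610_s_at gave 688 in wild type against 664, 923 and 837 in the KO arrays. Probe set 1422611_s_at gave 522 against 562, 557 and 302. In both, the groups overlapped, with KO replicate 3 on the high side of one and the low side of the other. Probe set 1450687_at gave 191.7 against 218, 184.2 and 93.9, also overlapping, with KO replicate 3 lowest. Probe set 1453957_a_at gave 190.6 against 160.6, 183.4 and 178.7, where the wild-type array was above all 3 KO arrays by a small margin, which was lost with quantile normalization.

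Relative to the wild-type array, the 12 KO signals of Igf2bp3 ranged from 0.490 to 1.34 times. The log2 differences of the 4 probe sets were 0.21 (SE 0.35), -0.19 (SE 0.45), -0.12 (SE 0.32) and -0.27 (SE 0.48), with n = 3 KO arrays and 1 wild-type array, in the order 1422610_s_at, 1422611_s_at, 1453957_a_at and 1450687_at. Each was smaller than its standard error. Without KO replicate 3 the second and the fourth were 0.098 and 0.061, so their sign rested on that array. The suffix of 1422610_s_at and 1422611_s_at, like that of the Hmga2 probe set 1450780_s_at, marks probes that can match more than 1 transcript.

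After removal of the weakest 40% of probe sets, 6 of the 11 members were kept, 2 of Hmga2 and 4 of Igf2bp3. The filter corresponded to a signal of 80.3, and the 2 Hmga2 probe sets passed it only through the KO arrays. In limma, 0 of these 6 were called at an adjusted p under 0.05, where 0% of the 13575 kept probe sets were called in either direction and 324 had an unadjusted p under 0.05. The wild-type array lay below all 3 KO arrays in 2 of the 6, both of Hmga2, against 22.6% of all kept probe sets, and above them in 1, of Igf2bp3, against 23.3%. It lay at least 1 log2 unit below every KO array in 1, 1450780_s_at, against 0.192%, and at least 1 above in 0, against 0.228%. The contrast had served to choose the genes, so nothing is read from these counts.

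**Figure D2:**
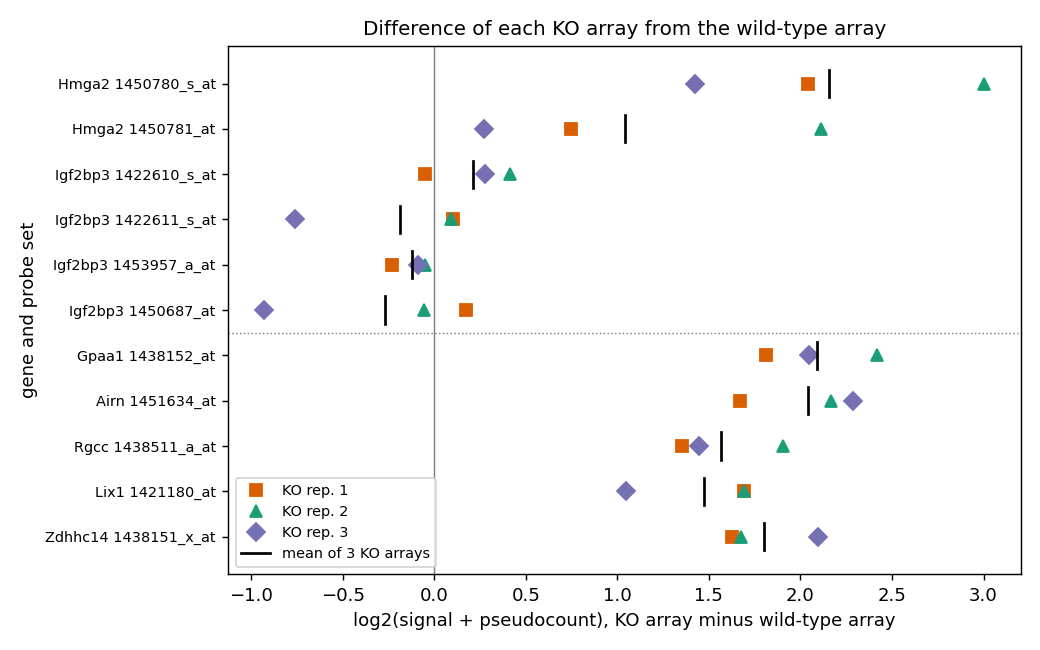
Log2 difference of each KO array from the wild-type array on the scale log2(signal + 14.4), for the 6 probe sets kept (above the dotted line) and for the 5 genes whose pattern was closest to that of Hmga2 (below it); the black bar is the mean of the 3 KO arrays. Hmga2 1450780_s_at runs from 1.42 to 3.01, and the Igf2bp3 probe sets lie around 0.

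The genes most like Hmga2 were found by the distance between their 3 log2 differences from the wild-type array and those of 1450780_s_at, over 4 arrays and 7765 other genes. They were Gpaa1, a subunit of GPI transamidase, at a distance of 0.88 log2 units, the imprinted antisense RNA Airn at 1.26, Rgcc at 1.30, Lix1 at 1.41 and the palmitoyltransferase gene Zdhhc14 at 1.55. The ratio of the highest to the lowest KO signal was 1.40 to 1.62 for these 5 and 3.15 for Hmga2. Airn did not exceed background in wild type, at 30.02, so its difference is a bound of at least 5.51-fold. Of the other Gpaa1 probe sets, 1448225_at overlapped between the groups, at 330 in wild type against 415, 349 and 244 in the KO arrays, while 1455954_x_at was higher in all 3, at 23.2 against 78.3, 89.6 and 45.7, the wild-type and the last signal being at background. The other Rgcc probe set was also higher in all 3 KO arrays, and those of Zdhhc14 all had KO arrays on both sides of wild type.

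Among the other let-7 targets with experimental support, a list of 27 genes, 21 had a probe set and 15 were kept. None was called in limma, as for 0% of the 7767 genes kept, and with the 1 probe set taken per gene, no gene of this or the other lists described here had an unadjusted p under 0.05. The wild-type array lay below all 3 KO arrays for 6 genes (40% of the list, against 23.5% of all genes kept) and above them for 1 (6.67%, against 20.5%). The 6 were Plagl2, Tgfbr1, Irs2, Cdc25a, Prdm1 and Nras, and the 1 was the ubiquitin-conjugating enzyme gene Cdc34. The median log2 difference of the list was 0.21, beside 0.0013 over all genes kept, and it was 0.12, 0.35 and 0.12 in KO replicates 1, 2 and 3. It was 0.13 without KO replicate 2 and 0.037 when the weakest 60% of probe sets were left out. The count below all 3 KO arrays was 6 with quantile normalization and 7 with median centring, where the share of all genes kept was 25.4% and 25.9%.

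Where single targets had further probe sets, these did not repeat the difference. Plagl2, a zinc finger transcription factor gene, gave 59.96 in wild type against 95.6, 103.8 and 126.0 in the KO arrays, without overlap, a log2 difference of 0.72 (SE 0.34, n = 3 KO arrays and 1 wild-type array). The TGF-beta receptor gene Tgfbr1 gave 430 against 640, 498 and 637. Irs2, an adaptor of the insulin receptor, gave 71.7 against 179.6, 116.6 and 72.2, the last at background. The phosphatase gene Cdc25a, which drives entry into S phase, gave 462 against 527, 703 and 593. Further probe sets existed for 4 of the 6 genes, Plagl2, Tgfbr1, Cdc25a and Nras. Of those 7 probe sets, 0 were higher in all 3 KO arrays and 4, of Tgfbr1 and Nras, were lower in all 3. For Tgfbr1, 1420893_a_at gave 97.1 in wild type against 83.5, 44.5 and 66.2 in the KO arrays, the last at background.

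The genes that make and destroy let-7 showed no common direction. Of 17 listed, 8 had a probe set and 7 were kept, and none was called. In all 3 KO arrays 2 were higher (28.6%, against 23.5% of all genes kept) and 0 lower (0%, against 20.5%). The median log2 difference was 0.0090. With quantile normalization 3 were higher, where the share of all genes kept was 25.4%. The 2 were Ago2, the slicing Argonaute, at 328 in wild type against 407, 576 and 778 in the KO arrays, and Tut7, a uridylyl transferase acting on let-7 precursors, at 696 against 760, 902 and 905. Both were without overlap, with the lowest KO signal in replicate 1, the array paired with wild type. Tarbp2, a partner of Dicer, and Hnrnpa1, which binds let-7 precursors, differed by 0.17 and -0.21 on the log2 scale, and their KO arrays lay on both sides of wild type. The other probe set of Tut7 overlapped between the groups, at 129.6 against 138.6, 230.5 and 109.8. Dicer1 itself gave 272.5 in wild type against 282.0, 246.6 and 296.6 in the KO arrays.

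Of 9 mRNAs known to be bound by Igf2bp proteins, 6 had a probe set and were kept, none called. Igf2, the growth factor mRNA for which these proteins are named, was weak, at 85.3 in wild type against 102.4, 112.9 and 121.1 in the KO arrays, without overlap. A further Igf2 probe set stayed at background in the 4 arrays, at 23.2, 10.4, 7.93 and 80.5. Cd44, the hyaluronan receptor, and Mapt, the tau gene, were lower in all 3 KO arrays, with log2 differences of -0.51 and -0.49, while Actb differed by 0.51 with KO arrays on both sides of wild type. A further Cd44 probe set, 1452483_a_at, gave 210.9 in wild type against 85.0, 68.7 and 44.0 in the KO arrays, the last at background, without overlap. Its log2 difference as measured was -1.52, with an unadjusted p of 0.0073 and an adjusted p of 0.9988 in limma. For Mapt, 1417885_at was also lower in all 3 KO arrays, by a log2 difference of -0.78, while 1424719_a_at overlapped, at 443 against 378, 359 and 571. The 2 genes lower in all 3 made up 33.3% of the list, against 20.5% of all genes kept, and the 1 higher 16.7%, against 23.5%. The list's median was -0.10, and 0.15 without KO replicate 3. Mapt is a neuronal gene, and the neuron marker sum given above was lower in the KO arrays as well, although 2 of its 7 markers were higher; its part in this difference was not tested.

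Genes listed as downstream of Hmga2 in neural stem cells, with Bmi1 counted among them, showed no common difference between the genotypes. All 4 with a probe set were kept and none was called. With the probe set taken for each, for none did the wild-type array lie outside the range of the KO arrays. Thus 0% were higher and 0% lower in all 3, against 23.5% and 20.5% of all genes kept. Cdkn2a, the inhibitor locus that Hmga2 restrains, gave 115.2 in wild type against 168.9, 172.5 and 97.4 in the KO arrays. The signal was higher than in wild type in KO replicates 1 and 2. It was lower in replicate 3, where it lay close to the background of 87.8. Its relation to the Hmga2 signal was not tested. Junb, another gene restrained in this pathway, gave 136.1 against 212.4, 85.03 and 82.8, the last at background, and Cdkn2b gave 626 against 402, 674 and 1137. Bmi1, a Polycomb gene of self-renewal that was listed with them without being a known target of Hmga2, gave 1942 against 2428, 1905 and 2118. Its other probe set, 1448733_at, was higher in all 3 KO arrays, at 1184 against 1430, 1333 and 1437.

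The other high mobility group proteins, chromatin proteins without AT-hooks of the Hmga kind, showed small differences. Of 9 listed genes, 6 were measured and kept, none was called, and the median log2 difference was -0.14. Hmgb2 and Hmg20b were lower in all 3 KO arrays (33.3%, against 20.5% of all genes kept), by log2 differences of -0.24 and -0.22. Hmgn5 was higher in all 3 (16.7%, against 23.5%), at 0.15. Hmgb3 and Hmgn1 differed by -0.31 and 0.22 with KO arrays on both sides of wild type. Of the other Hmgn1 probe sets, 1438940_x_at was higher in all 3 KO arrays, at 9488 in wild type against 9909, 10863 and 16662. The other probe set of Hmgb2, at 3759 in wild type against 3062, 3916 and 2701 in the KO arrays, overlapped between the groups. With the probe set taken, no gene of this family differed by as much as 1 log2 unit.

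**Figure D3:**
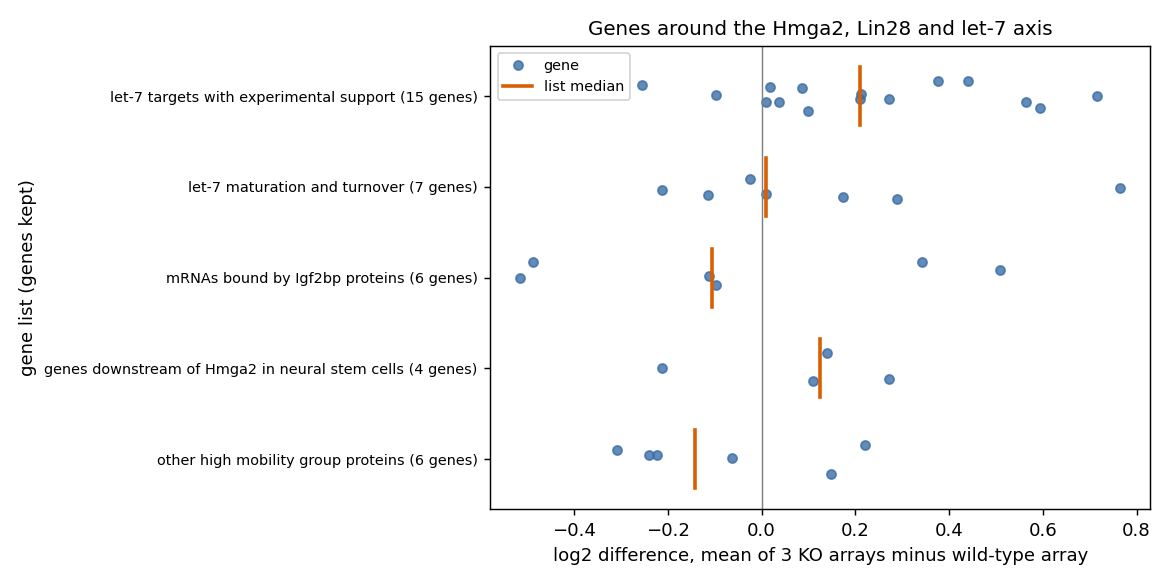
Log2 difference of the mean of the 3 KO arrays from the wild-type array for each kept gene (points, spread vertically for legibility) of 5 lists, with each list's median (bar). The medians run from -0.14 to 0.21, and no gene reaches 1 log2 unit with the probe set shown.

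Beside Hmga2, whose order from low to high was wild type and then KO replicates 3, 1 and 2, the technical measures and marker sums varied as follows. Spiked-in transcripts, 18 probe sets, had a median ratio to the wild-type array of 0.90, 1.89 and 2.75 in KO replicates 1, 2 and 3, so they were highest in replicate 3, where Hmga2 was lowest among the KO arrays. The ratio of 3' to 5' signal for beta-actin, which reflects RNA quality, was 1.11 in wild type against 1.25, 1.30 and 1.82 in the KO arrays. That for Gapdh was 0.759 against 0.794, 1.03 and 0.842, lowest in wild type and highest in KO replicate 2, as for Hmga2. The median signal of the 18S rRNA control probe sets was 4.64 in wild type against 7.24, 946 and 2823 in the KO arrays. It thus divided the arrays into the same pairs as Xist. The neuron marker sum of the KO arrays was 0.791, 0.514 and 0.494 times that of wild type, and the mesenchyme marker sum 0.964, 1.43 and 2.21 times. In KO replicate 3, only 3 of the 7 neuron and 2 of the 6 mesenchyme markers were above background. The astrocyte marker sum was 0.780, 0.501 and 0.717 times that of wild type, lowest in KO replicate 2, where Hmga2 was highest. The part of these measures in the Hmga2 signal was not tested.

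**Figure D4:**
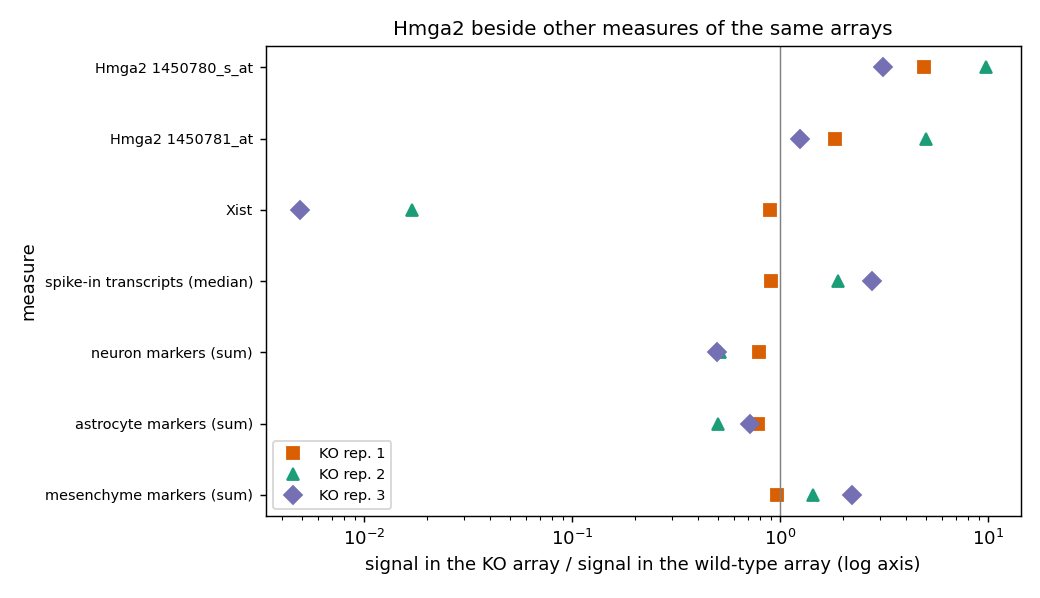
Ratio of each KO array to the wild-type array (log axis) for the brighter 2 Hmga2 probe sets, Xist, the median of the spiked-in transcripts and the summed signals of 3 marker lists. Hmga2 is highest in KO replicate 2 and lowest in replicate 3, whereas spiked-in transcripts and the mesenchyme marker sum are highest in replicate 3. Of the 6 mesenchyme markers, 2 are above background in that array. Xist, at background in replicate 3, splits the KO arrays.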

How the data were processed

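The deposited values are MAS5 signal intensities, 1 array per sample (MAS5 per the submitters' processing notes, with no version or target signal stated). RNA was extracted with Trizol, and 6 µg was labelled, per the labels' protocols. Gene names came from the platform annotation, updated through RefSeq (GRCm38.p6) gene identifiers; 20393 of the 22690 probe sets had 1 symbol.

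The members and lists were chosen with earlier results of these data known. Signals were turned into log2(signal + 14.4), the pseudocount being 0.1 times the median, with no further scaling. The 64 control probe sets and the weakest 40% by mean were left out. The remaining 13575 were fitted with lmFit and eBayes (limma 3.58.1, R 4.3.3), two-sided, Benjamini-Hochberg adjusted, threshold 0.05; the fit, tested on simulated data, estimates spread on the 3 KO arrays alone and assumes that wild type varies like them. In lists, a gene is its probe set with the highest mean. List genes were named by moderated t, up to 4 a list, and those a small count refers to. The number of arrays limits the precision. Alternatives covered pseudocount, scaling, filter, each KO array left out, array pairs as a block, eBayes settings and probe set choice.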

Additional observations from a re-analysis of the deposited data

How the results depend on the processing

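The count of 0 called probe sets held under every alternative run except the removal of KO replicate 1, which gave 5, Eif2s3y, Xist and Tmem87a among them and no member; leaving out each KO array gave 0 to 5. With the array pair as a block, which leaves the difference of KO replicate 1 from wild type, the Igf2bp3 probe sets 1422610_s_at and 1453957_a_at moved to -0.051 and -0.23, 1422611_s_at and 1450687_at turned from -0.19 to 0.10 and from -0.27 to 0.18, the list downstream of Hmga2 to 0.41 and the other high mobility group proteins to -0.073. With the weakest 60% left out, the let-7 target median moved to 0.037. The Hmga2 difference with 1450780_s_at ran from 1.57 to 2.52 over 9 alternatives, and from 1.73 to 2.52 with a KO array left out; that with 1450781_at ran from 0.51 to 1.43. Leaving out a KO array gave medians of -0.14 to -0.065 for the other high mobility group proteins. The median of the let-7 maturation list ran from -0.045 to 0.13 and has no stable sign. With the 95th percentile of the controls as background, chosen after seeing the data, 29 of 44 member signals were above it, against 27. With 60% left out, the Hmga2 probe sets and the Igf2bp3 probe sets 1453957_a_at and 1450687_at were not kept and had no value. The pair was taken from the Xist signals, and the titles divide the same way, since those of KO replicates 2 and 3 carry a number and the others none. Without KO replicate 1, pair and genotype divide the remaining arrays in the same way and cannot be told apart.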
